A study of Mus musculus with 6 samples.

Results

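Chemokines are small secreted proteins that steer the migration of cells carrying their receptors. Their families are named after the cysteines near the start of the mature protein, which are adjacent in CC chemokines, separated by another residue in CXC chemokines and reduced to a single residue in the C family. CD8+ T cells, the killer cells of adaptive immunity, make several of them after antigen recognition and so call dendritic cells, macrophages and further T cells to the site. The 7 genes described here are *Ccl1*, *Ccl3*, *Ccl4*, *Ccl5*, *Ccl9*, *Xcl1* and *Cxcl10*, taken by gene name from 54446 genes in each deposited file. Their levels are given in FPKM (sequenced fragments per kilobase of transcript, scaled to the size of the library), summed over the transcripts of a gene.

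The study asked whether a static magnetic field (SMF) alters the function of CD8+ T cells, and RNA-Seq was used to look for genes that respond to it. All 6 libraries came from spleen CD8+ T cells of wild-type C57BL/6 mice 8 weeks old, isolated with a negative selection kit, and each of the 3 groups had 2 libraries. Unstimulated cells were fresh. Control cells were stimulated without magnets for 72 h with antibodies to CD3 and CD28 bound to the plate, and SMF-treated cells were stimulated in the same way on magnets of 0.3 T. Stimulated cells were thus also cultured cells, and the sources do not say whether 2 libraries of a group came from separate mice, so p-values measure only the spread between these libraries.

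The sequence assigned to transcripts ran from 64.4 to 259 Mb (megabases) per library, lowest in control replicate 1 and highest in SMF replicate 1, and read counts were not given. Of the 14991 genes whose mean over the libraries reached 1 FPKM, 9.17 to 19.7% were listed at 0 in a library. All 7 markers of CD8+ T cells (the CD3 chains, CD8 chains, *Cd2* and *Cd5*) were above 0 in every library. They summed to 638 and 721 FPKM in unstimulated, 368 and 544 FPKM in control and 966 and 870 FPKM in SMF libraries. *Cd4* was between 0 and 4.68 FPKM. Folder names in the file headers carried one date for unstimulated and control replicate 1, another for unstimulated and control replicate 2, and a different one again for both SMF libraries. The field and this date cannot be told apart in any comparison with SMF-treated cells, whereas control and unstimulated cells can be compared within a date. Both comparisons with unstimulated cells share those libraries, and both comparisons with control cells share theirs, so the 3 comparisons are not independent.

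The cysteines that define the 3 families are visible in the coding sequences. The stretches below, from the GENCODE M21 transcripts on GRCm38, each hold 33 coding bases around the first cysteines of the mature protein, with the cysteine codons in capitals and 5′ to 3′ on the coding strand. They show the adjacent codons in 4 of the CC chemokines, whereas *Xcl1* is of the C family and *Cxcl10* is a CXC chemokine.
Ccl4: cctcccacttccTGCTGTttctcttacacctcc
Ccl5: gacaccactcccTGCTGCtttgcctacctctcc
Ccl9: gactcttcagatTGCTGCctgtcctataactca
Ccl1: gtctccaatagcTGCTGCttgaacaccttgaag
Xcl1: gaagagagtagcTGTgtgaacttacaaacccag
Cxcl10: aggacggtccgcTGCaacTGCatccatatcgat
The stretches lie at chr11:83663470-83663502 (plus strand) in *Ccl4*, chr11:83529227-83529259 (minus strand) in *Ccl5* and chr11:83575911-83575943 (minus strand) in *Ccl9*. Those of *Ccl1*, *Xcl1* and *Cxcl10* lie on the minus strand at chr11:82178093-82178125, chr1:164932957-164932989 and chr5:92348169-92348201. Each falls within 1 coding exon. Over the whole coding sequence *Ccl3* and *Ccl4* were the most alike of the 21 pairs, with 68.1% identical bases, followed by *Ccl3* and *Ccl5* with 61.6%. A search of all transcripts for stretches of at least 100 bases with at least 90% identity found 0 other genes for *Ccl1*, *Ccl3*, *Ccl4* and *Ccl5*. It found 1421 for *Ccl9*, 1 for *Cxcl10* (bases 962 to 1094 of the transcript) and 1 for *Xcl1*. The stretch of *Xcl1*, bases 1 to 100 at 100% identity, takes in its first exon.

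Of the 7 genes, 5 share chromosome 11, and 4 of those lie in one cluster. From the first base of *Ccl5* to the last of *Ccl4*, a distance of 138906 bases, the annotation lists 7 genes, among them *Ccl5*, *Ccl9*, *Ccl3* and *Ccl4* in that order. *Ccl3* and *Ccl4* point away from each other, with 13229 bases between their starts. *Ccl6*, a CC chemokine of myeloid cells that lies between *Ccl9* and *Ccl3*, had 7.49 and 7.13 FPKM in unstimulated replicates 1 and 2 and was listed at 0 in all 4 stimulated libraries. In SMF-treated compared with unstimulated cells the cluster held genes that passed the test as lower, *Ccl5* and *Ccl6*, beside genes that passed it as higher, *Ccl3* and *Ccl4*. In control cells *Ccl3* and *Ccl6* passed, and *Ccl4* and *Ccl5* did not.

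*Xcl1* (lymphotactin, ENSMUSG00000026573.7, chr1:164931644-164935527, minus strand, 3 exons), which attracts the dendritic cells that present antigen to CD8+ T cells, was the most abundant of the 7 genes in all stimulated libraries. Unstimulated replicates 1 and 2 had 9.26 and 3.82 FPKM, control replicates 216 and 359 FPKM, and SMF replicates 511 and 295 FPKM. Every stimulated library was far above both unstimulated ones, while the SMF libraries lay on either side of control replicate 2. Among all genes *Xcl1* ranked 120 and 247 in SMF libraries, 371 and 205 in control libraries, and 6153 and 9902 in unstimulated libraries. The mean rose from 6.54 ± 3.84 FPKM (SD, n = 2) in unstimulated cells to 288 ± 101 FPKM in control cells, a ratio of 44.0.

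*Ccl3* (macrophage inflammatory protein 1 alpha, ENSMUSG00000000982.5, chr11:83647844-83649355, minus strand, 3 exons) attracts macrophages and T cells. It had 7.03 and 3.97 FPKM in unstimulated cells, 21.8 and 49.0 FPKM in control cells and 126 and 141 FPKM in SMF-treated cells. No libraries of any pair of groups overlapped, and the order was unstimulated, control and SMF. *Ccl4* (macrophage inflammatory protein 1 beta, ENSMUSG00000018930.3, chr11:83662584-83664683, plus strand, 3 exons), a close relative of *Ccl3*, had 8.05 and 3.18 FPKM in unstimulated cells, 7.90 and 38.2 FPKM in control cells, and 58.2 and 75.1 FPKM in SMF-treated cells. Here control replicate 1 lay between the unstimulated libraries, and both SMF libraries were above all others. The ratio of *Ccl3* to *Ccl4* was 0.873 and 1.25 in unstimulated, 2.76 and 1.28 in control and 2.16 and 1.88 in SMF libraries, so the control libraries spanned the SMF ones.

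*Ccl5* (RANTES, ENSMUSG00000035042.2, chr11:83525778-83530518, minus strand), a chemokine that memory CD8+ T cells and NK cells are known to hold as ready transcript, went the other way. It had 20.2 and 37.3 FPKM in unstimulated cells, 14.0 and 10.9 FPKM in control cells, and 0.472 and 6.56 FPKM in SMF-treated cells. The groups did not overlap, with unstimulated cells highest and SMF-treated cells lowest, and the SMF replicates were far apart for so low a level. In a bulk sample fewer cells of a type and less RNA per cell cannot be told apart. The sum of the 4 NK cell markers was higher in unstimulated libraries too, at 18.5 and 10.5 FPKM in unstimulated, 0 and 2.29 FPKM in control and 0.401 and 1.70 FPKM in SMF libraries. Of these, *Klre1* alone was above 0 in stimulated libraries, and *Ncr1* and *Klrb1c* were listed at 0 there. Their part in the level of *Ccl5* was not tested.

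The other 3 genes were at or near 0. *Ccl1* (ENSMUSG00000020702.13, chr11:82176657-82305690, minus strand), a ligand of CCR8 made by activated T cells, was listed at 0 in all 6 libraries. *Ccl9* (ENSMUSG00000019122.8, chr11:83572919-83578636, minus strand), a ligand of CCR1 mostly studied in myeloid cells, reached 1.22 and 1.90 FPKM in the SMF replicates and 0.650 FPKM in control replicate 2, and was listed at 0 in the remaining libraries. The SMF libraries were the highest, but its first exon was at 0 in every library and its last exon holds a stretch that 1421 other genes share at 90% identity or more. In SMF replicate 1 the middle exons, which lie outside that stretch, had a scaled coverage of 4.91 and 9.14 FPKM, and in SMF replicate 2 and control replicate 2 they were at 0. *Cxcl10* (ENSMUSG00000034855.13, chr5:92346638-92348889, minus strand), an interferon-induced ligand of CXCR3, reached 1.79 FPKM in control replicate 2 and 3.76 FPKM in SMF replicate 2, and was listed at 0 in the other 4 libraries. All 3.76 FPKM in SMF replicate 2 were assigned to a single-exon transcript annotated as a retained intron, and the spliced coding transcript had 0.870 FPKM in control replicate 2 and 0 elsewhere. *Art3*, on the opposite strand, overlaps *Cxcl10* and had 7.10 and 7.61 FPKM in those same libraries. It also had 2.79 FPKM in unstimulated replicate 1 and 1.99 FPKM in control replicate 1, where *Cxcl10* was at 0.

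**Figure D1:**
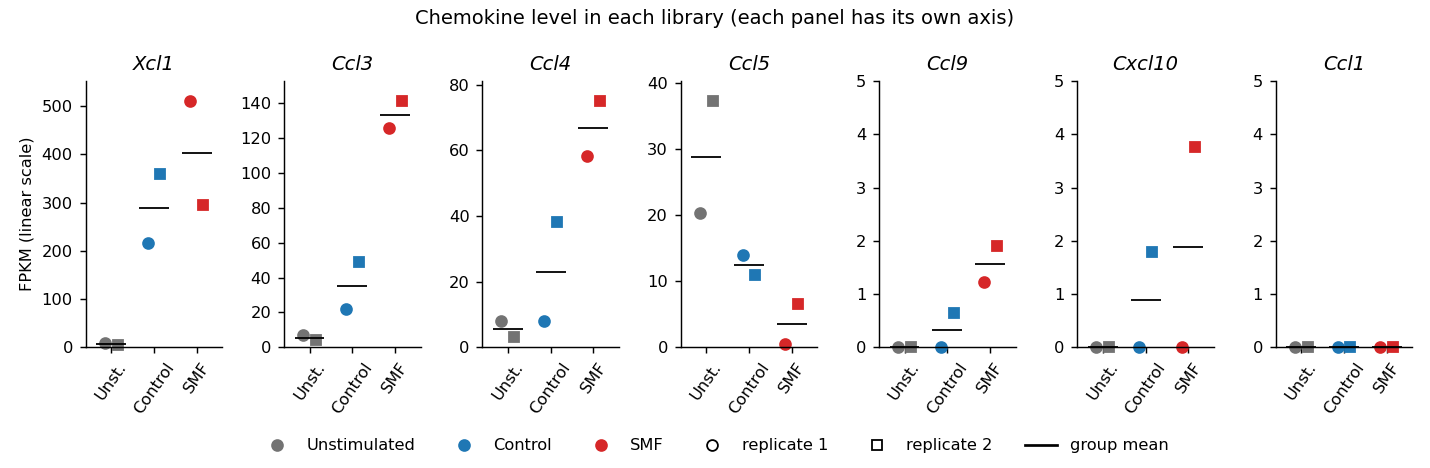
FPKM of each chemokine on a linear axis, with circles for replicate 1, squares for replicate 2 and black lines for group means (n = 2), and a separate axis for each gene. *Xcl1*, *Ccl3* and *Ccl4* were highest in stimulated cells, *Ccl5* was highest in unstimulated cells at 20.2 and 37.3 FPKM, and *Ccl9*, *Cxcl10* and *Ccl1* stayed under 4 FPKM.

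The make-up of the 7 transcripts thus turned over with stimulation. Summed over the 7 genes, the level was 44.6 and 48.2 FPKM in unstimulated, 260 and 460 FPKM in control and 696 and 524 FPKM in SMF libraries. *Ccl5* made up 45.4 and 77.3% of this sum in unstimulated libraries and between 0.0677 and 5.39% in stimulated libraries. *Xcl1* made up 20.8 and 7.92% in unstimulated cells, 83.2 and 78.1% after stimulation without magnets, and 73.4 and 56.4% with them. The shares of *Ccl3* were 8.40 and 10.6% in control and 18.0 and 27.0% in SMF libraries. Within stimulated cells *Xcl1* was 4.07 and 2.09 times the level of *Ccl3* in SMF libraries and 9.90 and 7.34 times in control libraries, so this ratio did not overlap between them. These ratios compare levels per length of transcript.

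**Figure D2:**
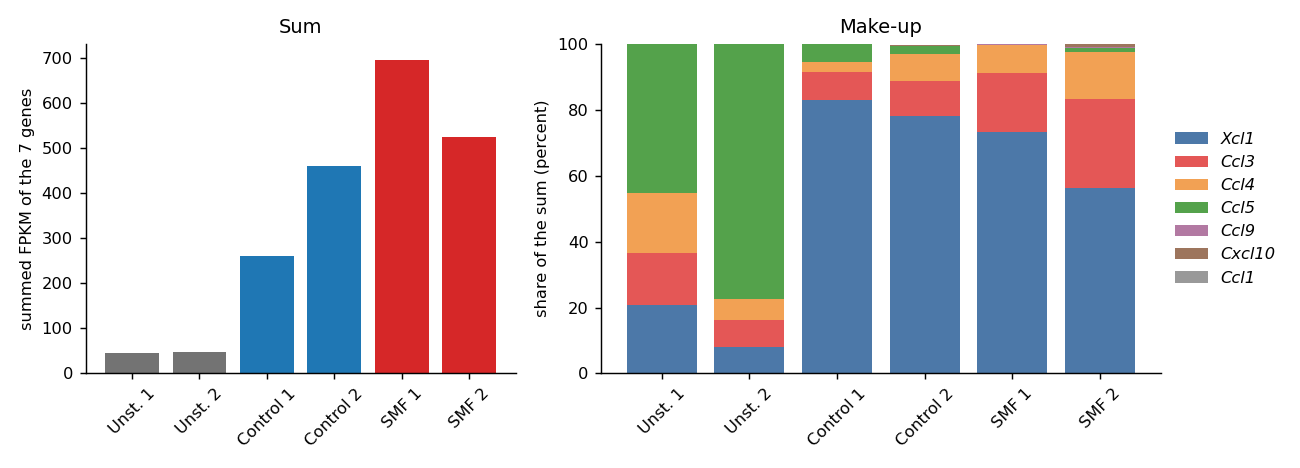
Summed FPKM of the 7 chemokines in each library (left, bars from 0) and the percentage of that sum from each gene (right). The sum was below 50 FPKM in both unstimulated libraries and between 260 and 696 FPKM in stimulated ones, where *Xcl1* held 56.4 to 83.2%.

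To ask which chemokines changed with stimulation and culture without the field, control cells were compared with fresh unstimulated cells. Differences are on the log2(FPKM + 1) scale, fitted with limma over all 6 libraries, and a gene was called where the fold was at least 2 and the unadjusted p no more than 0.05, the study's thresholds. Of the 7 genes, 4 passed the filter on low levels, a mean of 1 FPKM or more (*Xcl1*, *Ccl3*, *Ccl4* and *Ccl5*), and the filter kept genes high in any group. Of these 4, 2 were called higher and 0 lower, where 12.3% of all genes tested were called higher and 12.6% lower. Their libraries did not overlap in 3 of the 4, 2 higher and 1 lower, against 24.8% of all genes higher and 26.6% lower. Both called genes passed an adjusted p of 0.05, as did 4.52% of genes as higher and 3.96% as lower. That pass was lost for both when the 4 unstimulated and control libraries were fitted alone. The limma adjusted p was then 0.124 for *Ccl3* and 0.0905 for *Xcl1*, and 0.184 and 0.155 with a replicate block added. With any 1 of the 6 libraries left out, it was 0.0865 to 0.160 for *Ccl3* and 0.0324 to 0.0883 for *Xcl1*, and both stayed called. *Xcl1* rose by 5.31 (standard error 0.49, limma adjusted p = 0.00716 with Benjamini-Hochberg adjustment) and *Ccl3* by 2.42 (standard error 0.47, adjusted p = 0.0342), and both were higher within each folder date. Within the dates the differences of *Xcl1* were 4.41 for replicate 1 and 6.22 for replicate 2, and those of *Ccl3* 1.51 and 3.33. 

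The differences of *Ccl4* and *Ccl5* did not pass the test in control cells. For *Ccl4* the log2 fold change was 1.60 (standard error 0.76, limma adjusted p = 0.244), with -0.02 within the date of replicate 1 and 3.23 within that of replicate 2. The value moved with each control library. Without control replicate 1, which had the least sequence, it was 2.67 and called (unadjusted p = 0.0136 in limma's test, adjusted p = 0.124), and without control replicate 2 it was 0.53 (unadjusted p = 0.432 in limma's test, adjusted p = 0.62). For *Ccl5* the log2 fold change was -1.09 (95% interval -3.05 to 0.87, limma adjusted p = 0.429), and the differences within the dates were -0.50 and -1.68, both lower. *Cxcl10* and *Ccl9*, which were not tested, differed by 0 for replicate 1, and by 1.48 and 0.72 for replicate 2. An exact permutation test of 2 against 2 libraries cannot give a p below 0.333, so these tests rest on the spread that limma shares across genes.

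In SMF-treated cells compared with unstimulated cells, 3 of the 4 tested genes were called higher and 1 lower, where 22.4% of all genes were called higher and 14.8% lower. The libraries of all 4 were apart, as were those of 39.7% of genes as higher and 26.0% as lower. *Xcl1* rose by 5.79 (adjusted p = 0.00340, limma), *Ccl3* by 4.41 (adjusted p = 0.00446) and *Ccl4* by 3.45 (adjusted p = 0.0253), with ratios of mean FPKM of 61.7, 24.3 and 11.9. *Ccl5* fell by 3.10 (standard error 0.81, limma adjusted p = 0.0398), from a mean of 28.8 ± 12.1 FPKM (SD, n = 2) to 3.52 ± 4.30 FPKM (SD, n = 2). All 4 passed an adjusted p of 0.05, which 14.2% of genes passed as higher and 9.40% as lower. *Ccl5* lost that pass with a pseudocount of 0.1 or 0.5 (limma adjusted p = 0.076 and 0.0509) and without the filter (0.0658). It also lost it when scaled to *Actb* (0.0847), without the variance trend (0.0562) and with libraries of these groups only (0.107). Its log2 fold change was -1.915 without SMF replicate 1 and -4.276 without SMF replicate 2. Some calls were lost with a library left out. The call of *Ccl5* was lost without unstimulated replicate 1 (log2 fold change -3.52, limma adjusted p = 0.174) or without unstimulated replicate 2 (-2.67, adjusted p = 0.237), and that of *Ccl4* without unstimulated replicate 2 (2.89, adjusted p = 0.178).

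To ask what differed with the field, SMF-treated cells were compared with control cells. *Ccl3* and *Ccl4* were called higher and *Ccl5* lower, 3 of the 4 tested genes, where 12.5% of all genes were called higher and 5.72% lower. The same 3 genes had no overlap between the groups, which held for 37.4% of all genes as higher and 17.4% as lower. After Benjamini-Hochberg adjustment 0 of the 4 passed 0.05 in limma, where 0.0200% of all genes passed as higher and 0.00667% as lower, and 3 of the 4 had an unadjusted p no more than 0.05, against 21.1% of all genes. *Ccl3* was 1.99 higher (standard error 0.47, unadjusted p = 0.00525, adjusted p = 0.145 in limma), from 35.4 ± 19.2 FPKM (SD, n = 2) to 133 ± 11.2 FPKM. *Ccl4* was 1.85 higher (standard error 0.76, unadjusted p = 0.04997, adjusted p = 0.237 in limma), so its call lay at the edge of the threshold, and it was lost in 14 of 17 other settings of the analysis. The summed CD8+ T cell markers were also higher in SMF than in control libraries, without overlap in 4 of the 7. Among the 4 was *Cd8a*, with 192 and 186 FPKM against 35.5 and 60.0 FPKM. The other CD8 chain, *Cd8b1*, overlapped, with 94.6 and 91.9 FPKM in SMF against 50.3 and 122.5 FPKM in control libraries, as did *Cd2* and *Cd3e*. The part of these markers in the differences of *Ccl3* and *Ccl4* was not tested. The gap of 2.14 between the control replicates of *Ccl4* was larger than its difference of 1.85 between the groups. *Ccl5* was lower (log2 fold change -2.004, standard error 0.81, unadjusted p = 0.0462, adjusted p = 0.233 in limma), a call lost in 11 of those 17 settings. It fell to -0.82 without SMF replicate 1, the library in which *Ccl5* rested on 98 bases of sequence.

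*Xcl1* did not differ beyond the spread between replicates. In SMF-treated against control cells its log2 fold change was 0.48 (95% interval -0.72 to 1.67, adjusted p = 0.598 in limma), and the SMF replicates differed by 0.79 and the control replicates by 0.73. The interval leaves room for a change of more than 2-fold upwards. Over all 14991 genes the median log2 fold change was 0.32 in this comparison, and once every library was shifted to one median the log2 fold changes were 1.65 for *Ccl3*, 1.504 for *Ccl4*, -2.345 for *Ccl5* and 0.14 for *Xcl1*, of which those of *Ccl3* and *Ccl5* were called. The same shift turned the 1868 higher and 857 lower calls over all genes into 877 higher and 1441 lower.

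**Figure D3:**
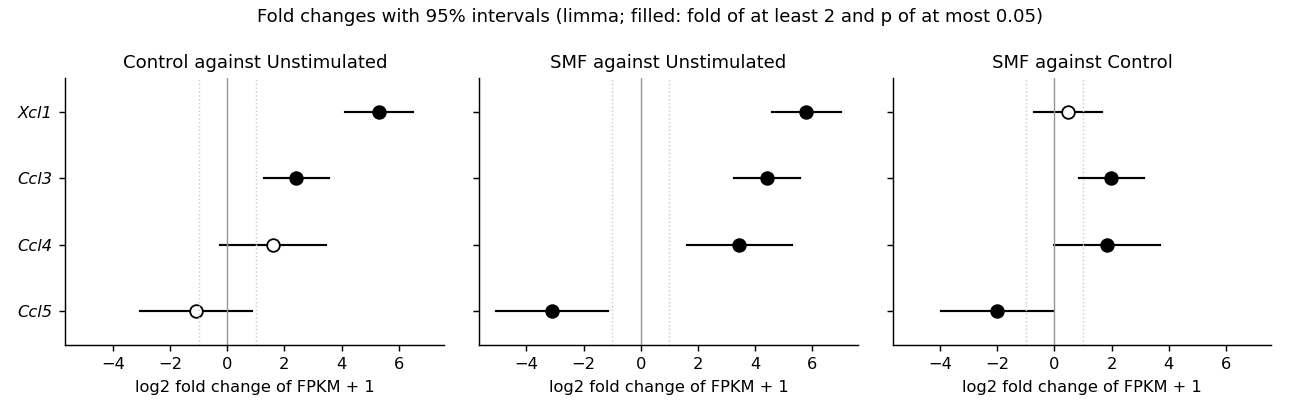
Log2 fold changes of FPKM + 1 from limma for the 4 tested chemokines in the 3 comparisons, with lines for 95% intervals, filled circles for genes that were called, and dotted lines at a fold of 2. *Xcl1* lay between 4.12 and 6.98 against unstimulated cells with its intervals, and its interval against control cells spanned 0, at -0.72 to 1.67.

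Coverage of single exons, which the files also list, was compared between the SMF and control libraries. Scaled to FPKM by each library's ratio of FPKM to coverage, the last exon of *Ccl3* had 20.9 and 41.6 in control and 158 and 197 in SMF libraries, but the first exon had 18.0 and 78.2 in control and 42.3 and 35.3 in SMF libraries. The groups were apart at the last exon and overlapped at the first. They also overlapped at the middle exon, with 31.6 and 41.5 in control and 95.7 and 37.0 in SMF libraries. For *Ccl4* the last exon had 5.09 and 31.6 in control and 56.7 and 85.3 in SMF libraries, and the first exon 15.1 and 59.95 against 21.2 and 33.3, which again overlapped. Its middle exon had 7.67 and 31.1 in control and 113 and 96.6 in SMF libraries, without overlap. For *Xcl1* the first exon had 117 and 272 in control and 94.2 and 76.7 in SMF libraries, so that both SMF libraries were lower, and the last exon had 175 and 355 against 659 and 347. Its middle exon overlapped, with 414 and 446 in control and 466 and 342 in SMF libraries.

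Measured on the first exon alone, a choice made after seeing the data, 0 of the 4 genes were called between SMF-treated and control cells, where 3.69% of 11724 genes were called higher and 2.87% lower. The log2 fold change was 0.03 for *Ccl3* and -0.18 for *Ccl4* (limma adjusted p = 1 for both), -3.49 for *Ccl5* (adjusted p = 0.790) and -1.06 for *Xcl1* (adjusted p = 0.790). On the last exon they were 2.54 for *Ccl3*, which was called (limma adjusted p = 0.298), 2.33 for *Ccl4* (adjusted p = 0.455), -1.11 for *Ccl5* (adjusted p = 0.747) and 0.94 for *Xcl1* (adjusted p = 0.595), so 1 of the 4 was called, where 8.95% of genes were called higher and 3.31% lower. All libraries had more coverage at last than at first exons, and the SMF libraries most: over 7862 genes the median log2 ratio of last to first exon was 0.47 and 0.92 in unstimulated, 0.37 and 0.73 in control, and 1.23 and 1.35 in SMF libraries. The part of this weighting towards the 3′ end in the differences of *Ccl3*, *Ccl4* and *Xcl1* was not tested. The rise of *Xcl1* from unstimulated to control cells was present at both ends, from 0 in both unstimulated libraries at the first exon and from 15.3 and 4.68 at the last exon. That of *Ccl3* was called at the last exon, with a log2 fold change of 3.12 (limma adjusted p = 0.169), and not at the first, with 3.45 (adjusted p = 0.660), where 6.99% and 4.96% of genes were called higher. The first exon of *Xcl1*, of 98 bases, faces the gene *Gm20743* on the opposite strand, which had 40.6 and 44.1 FPKM in unstimulated, 259 and 150 FPKM in control and 194 and 113 FPKM in SMF libraries, and the files were made with strand-aware assignment.

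**Figure D4:**
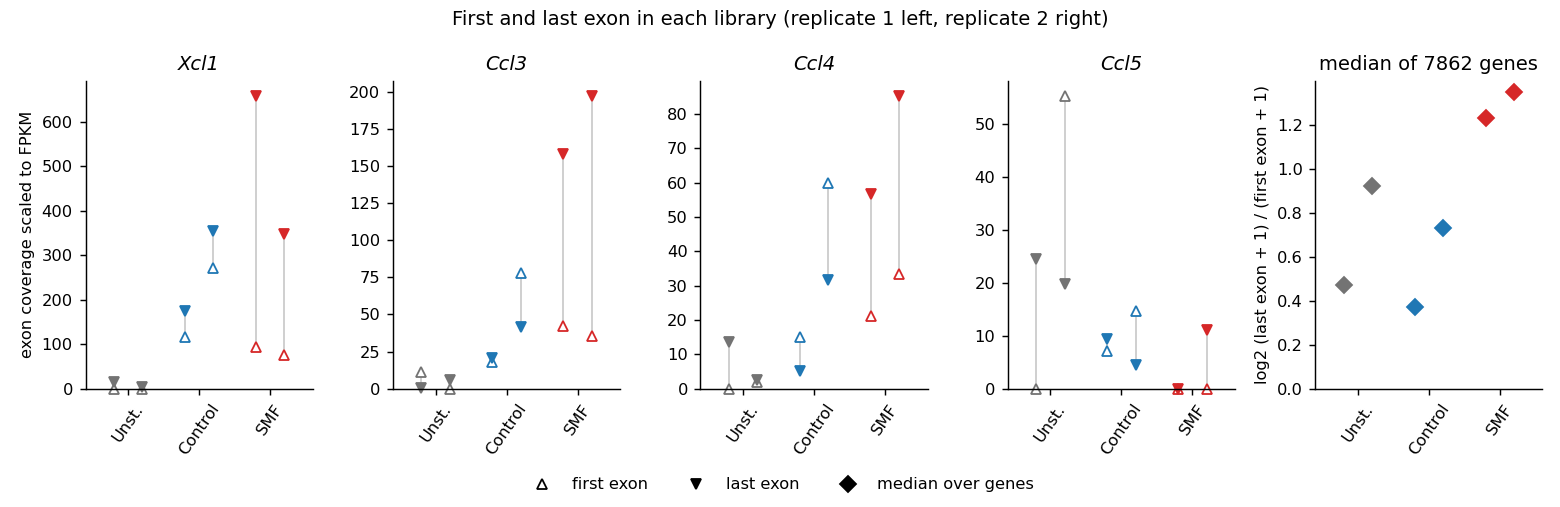
Coverage of the first (open triangles) and last exon (filled triangles) of 4 chemokine transcripts, scaled to FPKM on a linear axis, with replicate 1 on the left and replicate 2 on the right of each group, and the median log2 ratio of last to first exon over 7862 genes (right panel, diamonds). In the SMF libraries *Xcl1*, *Ccl3* and *Ccl4* had their last exon well above their first, and their first exons overlapped or lay below those of the control libraries.

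*Ccl5* has a spliced coding transcript of 3 exons and a transcript of 2 exons annotated as a retained intron. The spliced transcript had 13.2 and 32.2 FPKM in unstimulated, 13.2 and 9.13 FPKM in control and 0 and 5.95 FPKM in SMF libraries. It was lower in both SMF libraries than in all others, and control replicate 1 equalled unstimulated replicate 1. The retained-intron transcript had 7.01 and 5.03 FPKM in unstimulated libraries and between 0.472 and 1.79 FPKM in the 4 stimulated libraries, and it made up all of the 0.472 FPKM in SMF replicate 1. The spliced transcript was covered at its last exon only in SMF replicate 2, at 11.02 scaled FPKM, and in unstimulated replicate 1, at 24.5 scaled FPKM. In those libraries the first exon of the retained-intron transcript, which overlaps that of the spliced one, had 2.06 and 21.4 scaled FPKM. How bases shared by the 2 transcripts were divided between them was not tested.

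Promoters were looked at for *Xcl1* and *Ccl3*, which were both called higher in control than in unstimulated cells, and for *Cxcl10*, which was too low to be tested. The table of RefSeq promoters (GRCm38.p6) held 5 of the 7 genes, and the 250 bases before the start are printed for these 3, on the strand of the gene, with motif matches in capitals.
Xcl1: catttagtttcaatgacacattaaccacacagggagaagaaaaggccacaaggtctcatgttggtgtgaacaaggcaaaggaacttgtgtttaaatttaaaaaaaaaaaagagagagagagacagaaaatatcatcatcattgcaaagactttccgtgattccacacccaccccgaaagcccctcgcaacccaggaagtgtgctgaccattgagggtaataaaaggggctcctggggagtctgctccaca
Ccl3: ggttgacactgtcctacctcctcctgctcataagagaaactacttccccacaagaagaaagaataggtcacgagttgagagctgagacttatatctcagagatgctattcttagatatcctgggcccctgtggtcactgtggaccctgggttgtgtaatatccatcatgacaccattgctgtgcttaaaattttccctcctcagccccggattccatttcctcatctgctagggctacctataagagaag
Cxcl10: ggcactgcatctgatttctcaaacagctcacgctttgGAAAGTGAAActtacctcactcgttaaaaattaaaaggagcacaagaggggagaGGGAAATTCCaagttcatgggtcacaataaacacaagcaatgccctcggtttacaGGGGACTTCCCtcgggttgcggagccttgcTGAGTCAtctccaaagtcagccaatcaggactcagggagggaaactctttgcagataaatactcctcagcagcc
They lie on the minus strand at chr1:164935523-164935772, chr11:83649379-83649628 and chr5:92348890-92349139. Searched on both strands were the AP-1 motif TGANTCA, the TATA box TATAAA, the NF-kB motif, the interferon response motif (GAAA, NN and GAAA in a row) and the cyclic AMP response motif TGACGTCA. The window of *Cxcl10* held 1 AP-1, 3 NF-kB, of which 2 overlap, and 1 interferon response match, and those of *Xcl1* and *Ccl3* held none of these letters. Of the other 2 genes in the table, *Ccl1* held 2 overlapping NF-kB matches, and *Ccl9* held 1 AP-1, 1 NF-kB and 3 TATA box matches. Thus 2 of the 5 members held the AP-1 motif and 3 the NF-kB motif. Of 32851 promoters of this length, 6.75% held the AP-1 motif, 7.25% the NF-kB motif, 2.98% the interferon response motif, 12.37% the TATA box and 1.55% the cyclic AMP response motif. These matches describe letters and not binding.

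Most other chemokines of the family were at 0 in these cells, as were most of all genes. Of 31 further chemokine genes 18 were at 0 in every library and 4 passed the filter (*Ccl6*, *Ccl25*, *Cxcl16* and *Pf4*). Of all 54446 genes, 21980 were above 0 in at least 1 library and 14991 passed the filter. *Ccl6* was called lower in control and in SMF-treated cells (limma adjusted p = 0.0307 and 0.0165), and 0 of the 4 were called higher in any comparison or called at all between SMF-treated and control cells. Of all genes, 12.3% were called higher and 12.6% lower in control against unstimulated cells. The shares were 22.4 and 14.8% in SMF-treated against unstimulated cells, and 12.5 and 5.72% in SMF-treated against control cells. *Ccl25* had 1.22 and 0.477 FPKM in unstimulated, 0.430 and 2.16 FPKM in control and 4.61 and 1.75 FPKM in SMF libraries, so the SMF libraries were above the unstimulated and overlapped with the control libraries. *Cxcl16*, which is anchored in the membrane of the cell that makes it, had 4.70 and 2.36 FPKM in unstimulated libraries and between 0 and 1.89 FPKM in stimulated libraries. *Pf4*, a chemokine of platelets, was at 8.66 FPKM in SMF replicate 1, 2.24 FPKM in unstimulated replicate 2 and 0 elsewhere. The median log2 fold change of these 4 was -1.11, -0.10 and 0.64 in the 3 comparisons, in the order control against unstimulated, SMF against unstimulated and SMF against control, where the median of all genes was -0.05, 0.27 and 0.32.

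Summed markers of myeloid, B, dendritic and erythroid cells were lower in the same libraries as *Ccl6*, and those of platelets overlapped between unstimulated and SMF libraries. Platelet markers summed to 0.764 and 2.22 FPKM in unstimulated, 0 in both control and 1.16 and 0.335 FPKM in SMF libraries. Erythroid markers summed to 18.3 and 19.1, 5.21 and 7.16, and 10.1 and 1.51 FPKM in the same order. The 12 myeloid markers summed to 213 and 229 FPKM in unstimulated libraries and to between 47.0 and 53.8 FPKM in stimulated ones, of which *Csf1r* held 41.1 to 53.8 FPKM. Of the 12, 7 and 11 were above 0 in unstimulated, 1 and 1 in control and 2 and 3 in SMF libraries. Beside *Csf1r*, *Cd68* had 6.41 and 0.892 FPKM and *Itgam* 0 and 0.180 FPKM in SMF replicates 1 and 2. In unstimulated libraries *Cd68* had 9.49 and 10.2 FPKM. The 7 B cell markers summed to 175 and 123 FPKM in unstimulated, 23.3 and 8.46 FPKM in control and 4.85 and 2.71 FPKM in SMF libraries, and the 4 dendritic cell markers to 8.91 and 8.36 FPKM in unstimulated and at most 0.556 FPKM in stimulated libraries. Their part in the falls of *Ccl6* and of the receptor *Xcr1* was not tested.

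The receptors described here for these chemokines reached at most 11.1 FPKM. Of the receptors *Ccr8*, *Ccr1*, *Ccr3*, *Xcr1*, *Cxcr3* and the scavenging receptor *Ackr2*, 2 passed the filter (*Xcr1* and *Cxcr3*), and 0 were called between control and unstimulated or SMF-treated and control cells. Of all genes, 12.3% were called higher and 12.6% lower in the first of these comparisons, and 12.5% and 5.72% in the second. *Xcr1*, the receptor of *Xcl1* and a marker of cross-presenting dendritic cells, had 4.78 and 11.1 FPKM in unstimulated, 2.56 and 3.44 FPKM in control and 0.9748 and 0.4485 FPKM in SMF libraries. No groups overlapped, and its log2 fold change was -2.31 in SMF-treated against unstimulated cells (standard error 0.60, limma adjusted p = 0.0387). *Cxcr3*, a receptor of effector T cells, had 7.88 and 1.44 FPKM in unstimulated, 1.09 and 1.29 FPKM in control and 0 and 2.36 FPKM in SMF libraries, so SMF libraries lay on both sides of the control ones. Of the rest, *Ccr8* reached 2.45 FPKM in SMF replicate 1, *Ccr3* 2.24 FPKM and *Ccr1* 0.561 FPKM in unstimulated replicate 2, and *Ackr2* 3.86 FPKM in unstimulated replicate 1.

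Of 16 genes known to act on chemokine transcription, all tested, 5 were called higher and 3 lower in control compared with unstimulated cells, 4 higher and 4 lower in SMF-treated compared with unstimulated cells, and 2 higher and 0 lower in SMF-treated compared with control cells. The shares of all genes called higher and lower were 12.3 and 12.6%, 22.4 and 14.8%, and 12.5 and 5.72% in the same order, so the count against control cells lay at the background. The median log2 fold changes of the regulators were 0.12, 0.56 and 0.34. *Irf4*, induced by the T cell receptor, had 3.79 and 3.12 FPKM in unstimulated, 38.2 and 39.3 FPKM in control and 76.5 and 74.9 FPKM in SMF libraries. Compared with unstimulated cells it rose by 3.16 without and 4.11 with the field (adjusted p = 0.00800 and 0.00302, limma). The groups did not overlap, and between SMF-treated and control cells it was 0.95 higher, just under the fold limit (unadjusted p = 0.0203 in limma).

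*Ifng*, the effector cytokine that induces *Cxcl10*, had 26.3 and 12.7 FPKM in unstimulated, 310 and 175 FPKM in control and 187 and 308 FPKM in SMF libraries. It rose by 3.59 and 3.64 (adjusted p = 0.0142 and 0.00666, limma) against unstimulated cells, and SMF and control libraries overlapped. *Nfkb1* and *Rel*, subunits of NF-kB, were called higher in both comparisons with unstimulated cells, by 1.47 and 1.98 for *Nfkb1* and by 1.03 and 1.67 for *Rel*. *Runx3*, which drives CD8+ T cell identity, was called 1.51 higher in control than in unstimulated cells (adjusted p = 0.114 in limma). It had a log2 fold change of 0.95 in SMF-treated against unstimulated cells, and that between SMF-treated and control cells, -0.56, did not pass the test (adjusted p = 0.532 in limma).

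AP-1 members *Fos* and *Jun* fell with stimulation. *Fos* had 40.1 and 37.3 FPKM in unstimulated, 0 and 1.27 FPKM in control and 2.89 and 3.74 FPKM in SMF libraries, and *Jun* had 21.3 and 22.6, 8.33 and 3.42, and 6.43 and 2.86 FPKM in the same order. Neither stimulated group overlapped with unstimulated cells. Between SMF-treated and control cells *Fos* was called higher by 1.51 (adjusted p = 0.208, limma), and so was *Batf*, which pairs with JUN proteins, by 1.47 (adjusted p = 0.168), with 20.3 and 16.7 FPKM against 4.46 and 7.98 FPKM. *Irf1* fell in control cells, from 72.7 and 53.7 FPKM to 19.1 and 30.6 FPKM (log2 fold change -1.33, adjusted p = 0.0779 in limma). *Eomes*, a T-box factor of memory cells, and *Klf13*, known as an activator of *Ccl5*, fell in SMF-treated compared with unstimulated cells, with log2 fold changes of -1.97 and -1.42 (adjusted p = 0.0489 and 0.0525, limma). *Klf13* had 27.2 and 24.4 FPKM in unstimulated, 20.8 and 11.1 FPKM in control and 8.86 and 9.12 FPKM in SMF libraries, with no overlap between groups. Lower without overlap were 26.6% of all genes in control against unstimulated, 26.0% in SMF against unstimulated and 17.4% in SMF against control cells. The part of *Klf13* in the level of *Ccl5* was not tested. Calls of regulators between SMF-treated and control cells carry the same confounding with the folder date, and 0 passed an adjusted p of 0.05.

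**Figure D5:**
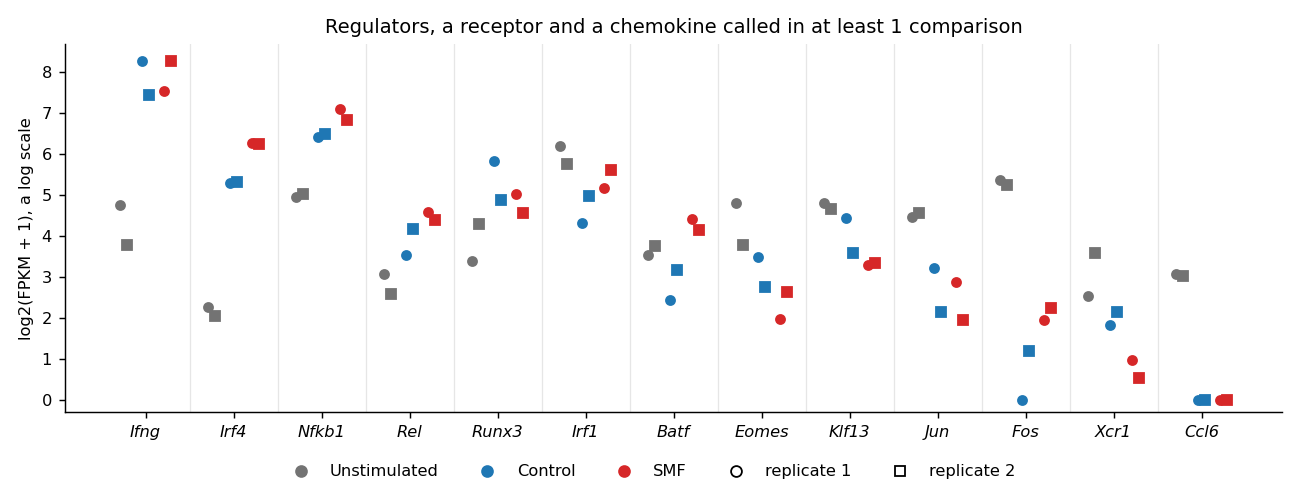
Log2(FPKM + 1) in each library for the 11 regulators, the receptor *Xcr1* and the chemokine *Ccl6* called in at least 1 comparison, with colours for groups and circles and squares for replicates 1 and 2. *Ifng*, *Irf4*, *Nfkb1* and *Rel* were higher in all stimulated than in all unstimulated libraries, and *Jun*, *Fos* and *Ccl6* were lower in all of them.

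Genes with the most similar profiles were found by the root mean square difference of centred log2(FPKM + 1) values over the 6 libraries, among 10777 tested genes. Left out of these were the members themselves, T cell receptor segments and symbols of Gm plus a number or ending in Rik. *Snrpd1*, a core spliceosome protein, was closest to *Ccl3* with a difference of 0.19, followed by *Uchl3* with 0.26. *Tmem258* and *Slamf1* were closest to *Ccl4* at 0.35 each, *Mir328* (0.24) and *Kcnrg* (0.33) to *Ccl5*, and *Nrn1* (0.50) and *Nr4a2* (0.51), a nuclear receptor induced by the T cell receptor, to *Xcl1*. *Nr4a2* had 0 and 0.293 FPKM in unstimulated, 25.6 and 33.8 FPKM in control and 70.2 and 47.8 FPKM in SMF libraries. Such likeness is a description over 6 libraries in 3 groups.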

How the data were processed

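A stranded low-input kit for total RNA was used to make the 6 libraries. According to the submitters' processing notes and the file headers, the authors trimmed reads with Trimmomatic 0.36, aligned them with HISAT2 to mm10 and ran StringTie 1.3.5 on the GENCODE M19 transcripts alone, with stranded assignment. The deposited files list FPKM, TPM and coverage for 137767 transcripts and coverage for each exon, and no other measurement in them was used. A deposited series table of FPKM was left out, since its 3 value columns matched no sample.

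FPKM was summed per gene. In Python 3.11.15 and R 4.3.3, limma 3.58.1 was fitted with a variance trend to log2(FPKM + 1) of the 14991 genes that averaged 1 FPKM or more (3 residual degrees of freedom), and p-values were adjusted over all of them with the Benjamini-Hochberg method. The pseudocount understates changes of low genes. Exon coverage was scaled to FPKM by the ratio of FPKM to coverage of each library, and fits to exons used the transcript of highest mean FPKM of each gene. Sequences came from GENCODE M21 transcripts, which share GRCm38 with M19, and from RefSeq promoters, and near-identical stretches were found with BLAST 2.17.0.

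Named were all 7 members, other chemokines averaging 1 FPKM or more, receptors, regulators that were called, and for each member averaging 5 FPKM or more the 2 genes of most similar profile. The members and lists were chosen with earlier results of these data known, and some items of the lists are not reported here. Alternatives varied the pseudocount, filter, unit (TPM), scaling, variance trend, libraries fitted, replicate block, each library left out and the exon used.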

Additional observations from a re-analysis of the deposited data

How the results depend on the processing

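Between control and unstimulated cells 2 of the tested chemokines were called, and 2 or 3 under every other setting, although on first exons alone they were *Xcl1* and *Ccl4*. Between SMF-treated and unstimulated cells 4 were called, 2 on first exons alone, and 2 to 4 with a library left out. Between SMF-treated and control cells 3 were called. That number was 1 with a pseudocount of 0.1 or 0.5, without the filter on low values, with libraries scaled to one value of *Actb*, without the variance trend, with libraries of those 2 groups only and on last exons alone. It was 0 on first exons alone or at an adjusted p of 0.05, and 1 to 2 with a library left out. The libraries without which it was 1 were control replicate 1, SMF replicate 1 and either unstimulated library. Of 17 settings other than the exon choices, *Ccl3* lost its call between these groups in 1, the scaling to *Actb* (log2 fold change 1.39, limma adjusted p = 0.571), *Ccl4* in 14 and *Ccl5* in 11. Scaled to *Actb*, which itself ran from 463 to 1348 FPKM, *Xcl1* turned to -0.14. On first exons alone *Xcl1* turned to -1.06 and *Ccl4* to -0.18 between SMF-treated and control cells, and *Ccl5* to 0.58 between control and unstimulated cells. For *Ccl5* this fit took the spliced transcript only. Its first exon was at 0 in unstimulated replicate 1, where the overlapping first exon of the retained-intron transcript had 21.4 scaled FPKM, so the turn does not describe the whole gene. The causes were not tested.

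With the replicate number as a block, 2, 4 and 2 of the tested chemokines were called in the 3 comparisons, and the call lost was that of *Ccl4* between SMF-treated and control cells (limma adjusted p = 0.244). Fitted to the 4 unstimulated and control libraries alone, the block left 2 called, both with an adjusted p above 0.05 (limma, 0.184 for *Ccl3* and 0.155 for *Xcl1*). Numbers were shared within a folder date by unstimulated and control libraries only, whose deviations correlated at 0.096 over genes, against 0.021 between SMF and control, so the number was not taken as a pairing. Bases of sequence behind a value were as few as 98 for *Ccl5* in SMF replicate 1 and 347 for *Xcl1* in unstimulated replicate 2, which limits what can be said of low levels.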
